A study of Mus musculus with 8 samples.

Results

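Hmga2 and Hmga1 encode the HMGA proteins, and their transcripts were followed through 8 microarrays of mouse blood stem and progenitor cells. The members are all probe sets to which the array's annotation gives exactly the symbol Hmga2 or Hmga1. They number 11, 8 for Hmga2 and 3 for Hmga1, of 225993 probe sets in all, and each gene was also taken as the average of its probe sets, as 2 of 19958 genes. The cells were sorted as Lin-Sca1+cKit+, so they lacked markers of mature blood lineages and carried both named surface proteins, and blood stem cells fall into this gate along with early progenitors. The 8 arrays comprise 3 from fetal livers of Hmga2-/- embryos at E14.5, 2 from bone marrow of Hmga2+/+ adults aged 8 to 12 weeks and 3 from fetal livers of Hmga2+/+ embryos at E14.5. The adult cells came from marrow and the fetal cells from liver, so tissue and age cannot be told apart, and adult cells without Hmga2 are not among the groups. The part of Hmga2 that is missing in the mutant, the strain and any pooling of animals are not stated in the labels. The labels call the arrays biological replicates without saying whether each came from its own animal, so p-values measure the spread between these arrays.

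HMGA proteins are small nuclear proteins that carry short DNA-binding segments called AT-hooks, with which they enter the minor groove of AT-rich DNA, bend it and help transcription factors assemble. They compete with linker histones for sites on chromatin and are abundant in embryonic and dividing cells. Hmga2 falls to low levels in most adult tissues and is a well-known target of the let-7 microRNAs, which bind its long 3′ untranslated region, and the RNA-binding protein Lin28b blocks let-7 maturation. Mice that lack Hmga2 have the small-bodied pygmy phenotype. Hmga1 encodes the closest relative of the protein.

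In GRCm38.p6, Hmga2 (gene 15364) lies on chromosome 10 from 120361268 to 120476469 and Hmga1 (gene 15361) on chromosome 17 from 27556574 to 27563672. RefSeq also lists a related protein-coding gene, Hmga1b, on chromosome 11 from 120762794 to 120764392, and no source used here says whether its transcripts reach the probe sets of Hmga1, so the Hmga1 values are uncertain in this respect. The 250 bases before each start are shown from RefSeq because the transcripts of these relatives differed in how they varied over the groups.
Hmga2, chr10:120476470-120476719, minus strand, with the longest run of C and T in capitals: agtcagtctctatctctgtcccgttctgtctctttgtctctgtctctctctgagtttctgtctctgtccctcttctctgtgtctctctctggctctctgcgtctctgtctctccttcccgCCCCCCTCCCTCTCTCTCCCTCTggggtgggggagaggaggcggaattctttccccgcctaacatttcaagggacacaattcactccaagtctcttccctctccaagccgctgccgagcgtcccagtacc
Hmga1, chr17:27556324-27556573, plus strand, the first of 2 windows listed, with GC boxes on either strand in capitals: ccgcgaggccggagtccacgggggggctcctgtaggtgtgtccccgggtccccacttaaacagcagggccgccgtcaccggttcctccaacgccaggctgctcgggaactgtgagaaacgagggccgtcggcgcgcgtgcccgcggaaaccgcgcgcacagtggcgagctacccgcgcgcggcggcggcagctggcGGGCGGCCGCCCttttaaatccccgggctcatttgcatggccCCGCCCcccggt
The Hmga2 window was 70.8% C and T on this strand, a share reached by 0.414% of 32851 such windows, and its longest run of those bases was 23, a length reached by 1.83%. The Hmga1 window was 72.8% G and C, a share reached by 6.03% of windows, and held 34 CG pairs, a number reached by 3.53%, against 8 in the Hmga2 window. The GC box, searched as GGGCGG on both strands, occurred 3 times before Hmga1, without sharing a base, and 1 time before Hmga2, where it overlaps the first bases of the run shown, and 32.7% of windows hold it. These letters describe the windows and do not show that a factor binds there.

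The series title places Hmga2 after Lin28b and let-7, and the mature let-7 sequences are shown for the seed, bases 2 to 8 in capitals, through which these microRNAs recognise targets such as Hmga2.
mmu-let-7a-5p, chr13:48538239-48538260, minus strand: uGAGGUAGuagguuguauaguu
mmu-let-7b-5p, chr15:85707325-85707346, plus strand: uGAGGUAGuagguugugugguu
mmu-let-7g-5p, chr9:106178846-106178867, plus strand: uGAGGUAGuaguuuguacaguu
The seed GAGGUAG was shared by 10 mature names of the family in the RefSeq table (GRCm38.p6), miR-98-5p among them. No level of a let-7 microRNA is given here.

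The deposited intensities had been normalized by RMA and are given on the log2 scale throughout. Array medians lay between 6.20 and 6.27, and arrays of the same group correlated over genes at 0.945 to 0.972. Between groups, Hmga2-/- and wild-type fetal arrays correlated just as highly, at 0.952 to 0.975. Adult arrays correlated with wild-type fetal arrays at 0.917 to 0.944 and with Hmga2-/- arrays at 0.914 to 0.930. Olfactory receptor genes, largely silent in blood cells, served as a measure of background, with a 95th percentile of 5.97 for gene averages and 6.13 for probe sets. Kit, which encodes the cKit receptor of the gate, read 9.64 to 9.90 on Hmga2-/- arrays, 10.17 and 10.28 on adult arrays and 9.78 to 10.07 on wild-type fetal arrays. Ly6a, which encodes Sca1, read 5.59, 6.34 and 7.25 on Hmga2-/- arrays, 8.99 and 8.44 on adult arrays and 7.39, 6.64 and 6.65 on wild-type fetal arrays, so 1 Hmga2-/- array lay below background, and the gene was lower in Hmga2-/- than in adult cells (limma adjusted p = 0.0179). Of 6 lineage markers measured, Itgam alone lay above background, in both fetal groups. Of 6 mesenchymal markers, genes of connective tissue cells, which also use Hmga2 in the embryo, 2 lay above background in Hmga2-/- cells, 4 in adult cells and 2 in wild-type fetal cells, none of them called between groups. The summed intensity of the mesenchymal list was 8.21 to 8.31 on Hmga2-/- arrays, 8.46 to 8.57 on adult arrays and 8.18 to 8.40 on wild-type fetal arrays and thus highest in adult cells. Wild-type fetal array 3 stood apart by the lowest array weight, 0.555, and by a hepatocyte list whose summed intensity reached 9.49 in its group, against up to 8.86 in Hmga2-/- cells and 8.89 in adult cells. Above background were 4 of 7 endothelial markers in Hmga2-/- cells, 2 in adult and 3 in wild-type fetal cells, 2, 3 and 2 of 7 macrophage markers, and 1, 1 and 0 of 5 erythroid markers in the same order of groups. The part of these lists in the results was not tested.

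Averaged over its 8 probe sets, Hmga2 was highest in wild-type fetal cells, lower in adult cells and lowest in Hmga2-/- cells. The Hmga2-/- arrays read 5.89, 5.88 and 6.08, the adult arrays 6.61 and 7.19 and the wild-type fetal arrays 9.24, 9.01 and 8.83. No array of one group overlapped with another group, as in 7.86% of genes lower in Hmga2-/- against wild-type fetal cells, 15.7% in adult against wild-type fetal cells and 29.6% in Hmga2-/- against adult cells, and 2 of 3 Hmga2-/- arrays lay below background. The mean was 5.95 ± 0.12 (SD, n = 3) in Hmga2-/- cells, 6.90 ± 0.41 (SD, n = 2) in adult cells and 9.02 ± 0.21 (SD, n = 3) in wild-type fetal cells. Tests were made with limma on all 8 arrays and all genes, with Benjamini-Hochberg adjustment and a gene called at an adjusted p under 0.05. In such bulk RNA, fewer cells with the transcript and less transcript per cell cannot be told apart.

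Hmga2 fell in Hmga2-/- against wild-type fetal cells, with a log2 fold change of -3.08 (SE 0.19, 95% confidence interval -3.50 to -2.65, limma adjusted p = 0.000448), and it ranked first of all genes by size and by p. With the averages of Hmga2-/- arrays below background raised to it, the fall was 8.10-fold. The raising acted on the average alone, in which 3 of 8 probe sets had Hmga2-/- means above background. The value is therefore no lower bound with each probe set raised to background. Of all genes, 0.01% were called lower. Since the missing part of the gene is not stated, a probe set outside it would not check the genotype. It fell in adult against wild-type fetal cells too, by 2.12 on the log2 scale (SE 0.21, 95% confidence interval -2.60 to -1.64, limma adjusted p = 0.00235), which is 4.35-fold, while 2.36% of genes were called lower and 3.19% in either direction. It was number 23 by p and 40 by size in that comparison. These comparisons share the wild-type fetal arrays. Without limma's pooling of variances over genes neither was called (adjusted p = 0.209 and 0.0582), nor in the deposited exon table (-3.12, adjusted p = 0.391, and -0.54, adjusted p = 0.691), which carries probe sets 3 and 4 of Hmga2 alone.

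Between Hmga2-/- fetal and adult cells the log2 fold change was -0.95 (SE 0.21, 95% confidence interval -1.43 to -0.48, limma adjusted p = 0.0291). Hmga2 was 1.86-fold lower in Hmga2-/- cells with averages below background raised to it, again no lower bound with each probe set raised. In this comparison 3.11% of genes were called lower and 8.91% in either direction, and 7.81% of genes had a larger change. The call ended without any single Hmga2-/- array (adjusted p from 0.0612 to 0.0839), without adult array 2 (log2 fold change -0.66, adjusted p = 0.126), with the replicate number as a block (adjusted p = 0.0877) and without pooled variances (adjusted p = 0.0986). With dim probe sets left out the value was -1.47 (adjusted p = 0.00807).

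**Figure D1:**
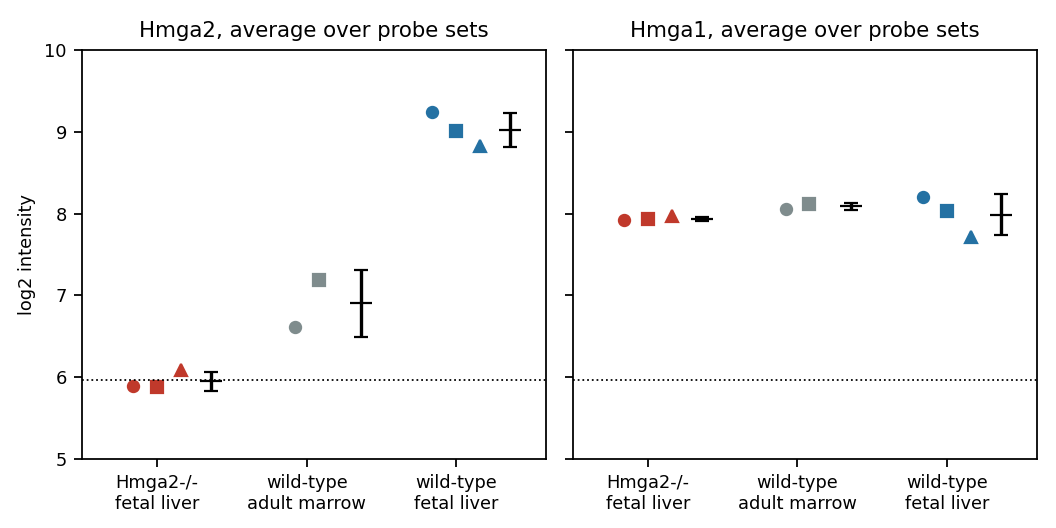
Log2 intensity of Hmga2 (left) and Hmga1 (right), averaged over probe sets, with 1 point per array (circle, square and triangle for replicates 1, 2 and 3), the mean with SD as a black bar and the background percentile of 5.97 as a dotted line. Hmga2 separates the 3 groups, with means of 5.95 in Hmga2-/- cells, 6.90 in adult cells and 9.02 in wild-type fetal cells, while the 8 arrays of Hmga1 stay between 7.72 and 8.21.

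The 8 probe sets of Hmga2, numbered here in identifier order, did not move alike. Probe set 1 (10372797) read 5.41, 5.09 and 4.48 on Hmga2-/- arrays, 8.90 and 6.47 on adult arrays and 11.74, 11.83 and 11.74 on wild-type fetal arrays. Probe set 2 (10372798) read 5.69, 6.21 and 5.91 on Hmga2-/- arrays, 6.87 and 8.31 on adult arrays and 11.62, 11.73 and 11.46 on wild-type fetal arrays. Both were close together over the wild-type fetal arrays and near background in Hmga2-/- cells, with adult arrays in between. Probe set 4 (10372800) read 4.88, 6.99 and 6.87 on Hmga2-/- arrays, 8.76 and 9.87 on adult arrays and 10.98, 11.35 and 10.39 on wild-type fetal arrays. Here 1 Hmga2-/- array lay below background and the other two above it, and the adult arrays lay nearer to the wild-type fetal ones than in probe sets 1 and 2.

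Probe set 5 (10372801) read 8.46, 8.24 and 8.48 on Hmga2-/- arrays, 8.63 and 8.43 on adult arrays and 9.90, 9.64 and 9.68 on wild-type fetal arrays. Its arrays varied little within each group, and Hmga2-/- and adult arrays overlapped well above background. Probe set 6 (10372802) read 6.84, 6.73 and 7.16 on Hmga2-/- arrays, 6.50 and 6.91 on adult arrays and 7.41, 7.18 and 8.20 on wild-type fetal arrays, again with overlap between Hmga2-/- and adult arrays only. Signal above background thus remained in Hmga2-/- cells in probe sets 4, 5 and 6, and whether it comes from transcripts of the mutant allele or from other RNA was not tested.

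Probe set 3 (10372799) read 5.05, 4.67 and 4.86 on Hmga2-/- arrays, 5.87 and 8.02 on adult arrays and 5.97, 8.04 and 5.31 on wild-type fetal arrays. Its scatter was wide in both wild-type groups, with 1 bright array in each. Probe set 7 (10372803) read 5.61, 4.76 and 5.5 on Hmga2-/- arrays, 3.03 and 5.30 on adult arrays and 8.44, 7.01 and 7.73 on wild-type fetal arrays, and was above background in wild-type fetal cells alone. Probe set 8 (10372804) read 5.16, 4.31 and 5.39 on Hmga2-/- arrays, 4.35 and 4.22 on adult arrays and 7.87, 5.29 and 6.09 on wild-type fetal arrays. Its mean of 6.41 in wild-type fetal cells came from array 1, since the other two lay below background.

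**Figure D2:**
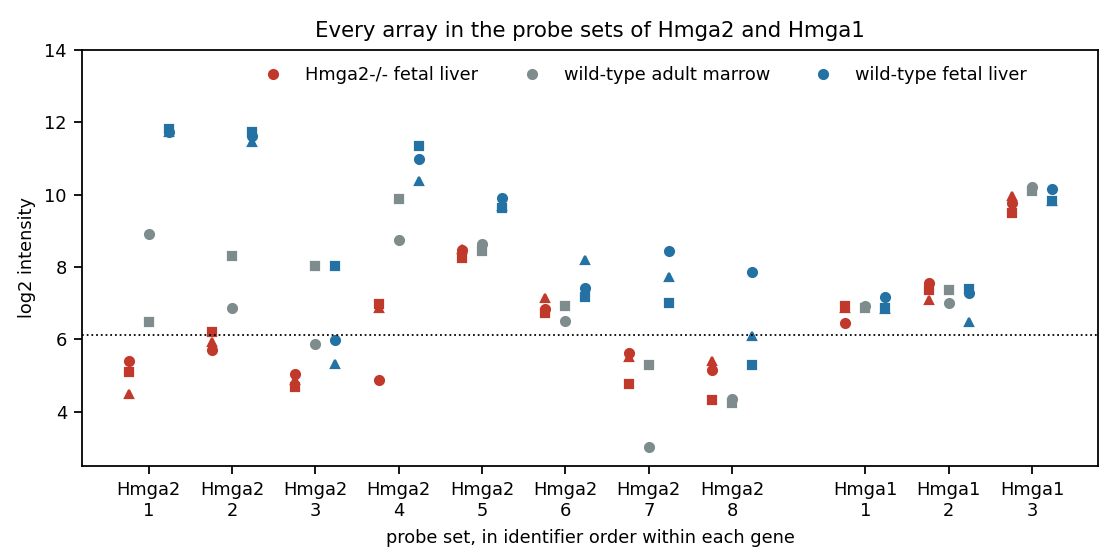
Log2 intensity of the 8 probe sets of Hmga2 and the 3 of Hmga1 on each array, in identifier order, by group and replicate (circle, square and triangle for replicates 1, 2 and 3), with the probe-set background of 6.13 as a dotted line. In probe set 1 of Hmga2 the Hmga2-/- arrays sit at 4.48 to 5.41 and the wild-type fetal arrays at 11.74 to 11.83, whereas the Hmga1 probe sets overlap between groups except the third, where the adult arrays lie above the Hmga2-/- arrays.

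All 8 probe sets of Hmga2 had a lower mean in Hmga2-/- than in wild-type fetal cells, and in 7 the arrays did not overlap, probe set 8 being the exception. Of all 208881 probe sets with 1 symbol, 6.57% were lower without overlap. In probe set 3 all 3 Hmga2-/- arrays and 2 of 3 wild-type fetal arrays lay below background, so its lack of overlap says little. The differences ran from -6.78 in probe set 1 to -0.69 in probe set 6, with a median of -2.01. Probe set 1 was at least 49.9-fold lower and probe set 2 at least 43.5-fold lower with values below background raised to it, and probe set 5, with all arrays above background, was 2.54-fold lower. Probe set 4 was 18.9-fold lower with Hmga2-/- array 1 raised to background, 25.3-fold as measured and 15.7-fold without that array. Mean intensities above background were found in 3 of 8 probe sets in Hmga2-/- cells, 6 in adult cells and 8 in wild-type fetal cells. Of all probe sets, 52.7%, 52.5% and 52.5% had such means in these groups. Tested singly with limma, 0 of the 8 were called, as were 0% of all probe sets, while 5 of the 8 and 7.08% of all had an unadjusted p under 0.05. With only these groups in the fit, 2 of the 8 were called, and the share of all probe sets called in that fit was not counted.

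Probe set 5 had a mean of 8.40 ± 0.14 (SD, n = 3) in Hmga2-/- cells and 9.74 ± 0.14 (SD, n = 3) in wild-type fetal cells, a difference of -1.34 (SE 0.29). By limma's test for unequal change over the probe sets of a gene, Hmga2 was number 2 of 17755 genes (adjusted p = 2.77e-05), and 0.727% of genes were called. In simulated arrays 27.2% of the calls of this test for this comparison were false, so its threshold was loose, and Hmga2 lay far inside it, with adjusted p values of at most 0.00433 in all 16 alternatives. Background limits the measured fall of dim probe sets, and probe sets 3 and 8 were at least 1.24- and 1.22-fold lower with values below it raised. Probe sets 5 and 6, above background on all arrays, were 2.54- and 1.61-fold lower. How far this limit makes the change unequal was not tested. Against the other probe sets of the gene, probe set 1 differed by -4.23 (adjusted p = 0.000825) and probe set 2 by -2.96 (adjusted p = 0.0382), and the remaining 6 were not called, with 0.177% of all probe sets called.

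**Figure D3:**
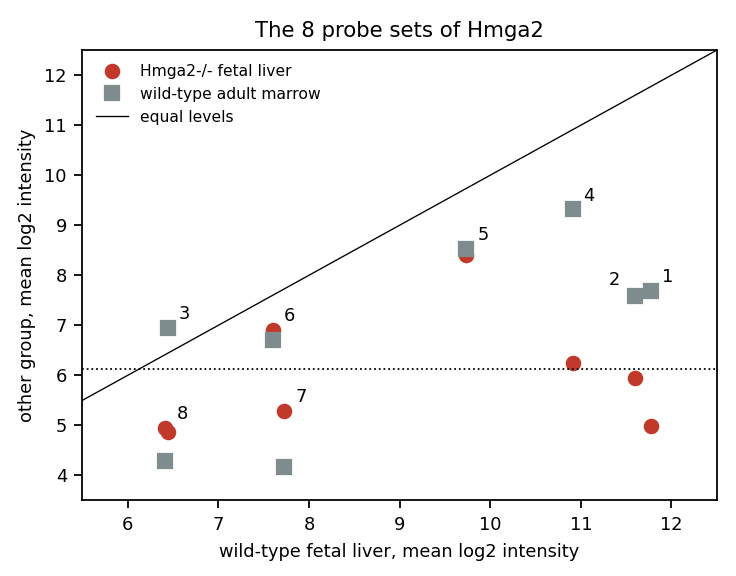
Mean log2 intensity of each Hmga2 probe set in Hmga2-/- fetal cells (red circles) and adult cells (grey squares) against its mean in wild-type fetal cells, numbered in identifier order, with the line of equal levels and the background of 6.13 dotted. Probe sets 1, 2 and 4 drop far below the line in Hmga2-/- cells, while probe sets 5 and 6 keep means of 8.40 and 6.91 there, close to the adult means of 8.53 and 6.70.

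In adult against wild-type fetal cells 7 of 8 probe sets were lower without overlap, and 12.8% of all probe sets were. The exception was probe set 3, with a difference of 0.50 (SE 0.87). In probe set 8 both adult arrays and 2 of 3 wild-type fetal arrays lay below background, so its lack of overlap says little. The lowest differences were -4.08 in probe set 1 (17.0-fold) and -4.01 in probe set 2 (16.1-fold), followed by probe set 7 with -3.56, at least 3.02-fold lower. Tested singly with limma, 0 of 8 were called and 0.023% of all probe sets, while 5 of 8 and 9.65% of all had an unadjusted p under 0.05. The test for unequal change called Hmga2 (adjusted p = 0.0109), with 1.96% of genes called and 26.8% of simulated calls false, and the call ended without wild-type fetal array 1 (adjusted p = 0.0806), without wild-type fetal array 3 (adjusted p = 0.109) and with only these groups in the fit (adjusted p = 0.115). No probe set of the 8 differed from the others of the gene at an adjusted p under 0.05, where 0.306% of all probe sets did. Wild-type fetal level and difference had a Pearson r of -0.588 over the 8 probe sets. The level is itself subtracted in the difference, which favours a negative r, so no conclusion is drawn from it. The adult means of probe sets 7 and 8 lay below background, which limits their measured fall. Whether this limit bears on the unequal change was not tested.

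Among the probe sets of Hmga2 with both adult arrays above background, numbers 1, 2 and 4 differed between these arrays by more than the median probe set. Adult array 1 was brighter by 2.43 in probe set 1, and adult array 2 by 1.44 in probe set 2 and 1.12 in probe set 4. The median gap between the adult arrays over all probe sets was 0.59, and 6.0% of probe sets had a gap larger than that of probe set 1. Probe sets 5 and 6 by contrast differed by 0.20 and 0.41. In wild-type fetal cells the arrays of probe set 1 spanned 0.088, a range exceeded by 99.2% of all probe sets. The adult average of Hmga2 thus combined probe sets brighter on array 1, such as number 1, and probe sets brighter on array 2, such as numbers 2 and 4.

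Between Hmga2-/- and adult cells 4 of 8 probe sets, numbers 1 to 4, were lower without overlap, where 18.5% of all probe sets were, and the other 4 overlapped. In probe set 3 all Hmga2-/- arrays and adult array 1 lay below background. In the 6 probe sets above background in at least 1 of these groups the differences ran from -3.07 in probe set 4 and -2.70 in probe set 1 (at least 2.94-fold) to 0.21 in probe set 6. Probe set 4 was 6.28-fold lower with Hmga2-/- array 1 raised to background, 8.39-fold as measured and 5.22-fold without that array. Probe sets 7 and 8, with differences of 1.12 and 0.67, lay below background in both groups and give no fold. Tested singly with limma, 0 of 8 were called and 0.107% of all, with 4 of 8 and 16.7% of all at an unadjusted p under 0.05. Unequal change was called for Hmga2 (adjusted p = 0.00357), but so it was for 17.4% of genes, and this comparison was not simulated. No single probe set differed from the others, where 1.53% of all did. Adult level and difference had a Pearson r of -0.757 over the 8 probe sets, but the level is again subtracted in the difference, which favours a negative r.

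**Figure D4:**
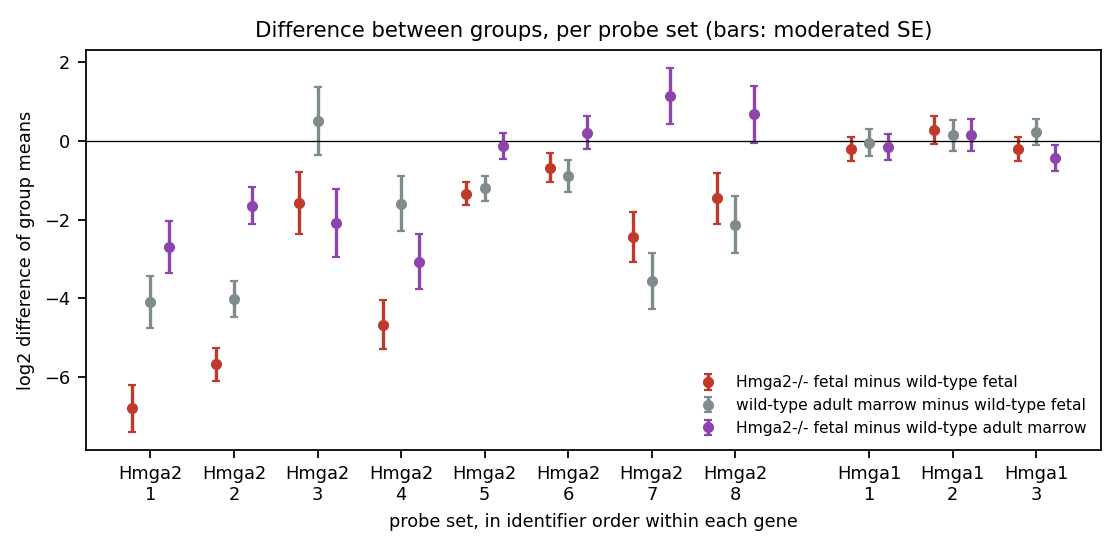
Log2 difference of group means, with the moderated SE as bars, for each probe set of Hmga2 and Hmga1 in the 3 comparisons. The Hmga2 differences spread from -6.78 to 1.12, while those of Hmga1 lie between -0.43 and 0.27 with bars that reach 0 except for probe set 3 in Hmga2-/- against adult cells.

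Hmga1 showed no called difference in any comparison. Averaged over its 3 probe sets it read 7.92, 7.93 and 7.96 on Hmga2-/- arrays, 8.06 and 8.12 on adult arrays and 8.21, 8.03 and 7.72 on wild-type fetal arrays. The Hmga2-/- and adult arrays were tight, and the wild-type fetal arrays spanned them, array 3 being the lowest of all 8. The means were 7.94 ± 0.024 (SD, n = 3) in Hmga2-/- cells, 8.09 ± 0.046 (SD, n = 2) in adult cells and 7.99 ± 0.25 (SD, n = 3) in wild-type fetal cells. Its log2 fold change was -0.05 in Hmga2-/- against wild-type fetal cells (95% confidence interval -0.40 to 0.31, limma adjusted p = 0.944). The value was 0.10 in adult against wild-type fetal cells (95% confidence interval -0.30 to 0.50, limma adjusted p = 0.796). Between Hmga2-/- and adult cells it was -0.15 (95% confidence interval -0.55 to 0.25, limma adjusted p = 0.598), where the arrays of the average did not overlap either, as in the 29.6% of genes given above. Without wild-type fetal array 3 the adult value turned to -0.03 and without array 1 the Hmga2-/- value to 0.06.

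The 3 probe sets of Hmga1 all lay above background in each group. Probe set 3 (10443198) read 9.76, 9.50 and 9.95 on Hmga2-/- arrays, 10.22 and 10.11 on adult arrays and 10.16, 9.84 and 9.83 on wild-type fetal arrays. It was the only one with groups that did not overlap, Hmga2-/- below adult, by -0.43 (SE 0.33, limma adjusted p = 0.550). Probe set 1 (10443196) ran from 6.46 to 7.18 and probe set 2 (10443197) from 6.49 to 7.54 over the 8 arrays. Tested singly, 0 of 3 were called or had an unadjusted p under 0.05 in any comparison, and unequal change was not called (adjusted p from 0.532 to 0.992).

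The change of Hmga2 was set against that of Hmga1 on the same arrays, as the per-array difference of the gene averages, which bears on unequal change and not on which gene is more abundant. It was -2.03, -2.05 and -1.88 on Hmga2-/- arrays, -1.44 and -0.93 on adult arrays and 1.03, 0.98 and 1.11 on wild-type fetal arrays. Hmga2 changed by -3.03 relative to Hmga1 in Hmga2-/- against wild-type fetal cells, by -2.22 in adult against wild-type fetal cells and by -0.80 in Hmga2-/- against adult cells. Each gave an exact two-sided permutation p of 0.1, the smallest that 3 against 3 or 3 against 2 arrays allow, so this test could not pass 0.05. The 2 averages had a Pearson correlation of 0.155 over the 8 arrays, given as a description.

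Relatives of the HMGA proteins were examined as lists. Of 12 genes of other HMG proteins, which bear the historical name of high-mobility group, 9 were measured. None of these was called in Hmga2-/- against wild-type fetal cells (0 of 9), and 0 had an unadjusted p under 0.05, with 0.01% of genes called and 7.63% under 0.05. Their median was 0.13, against -0.02 over all genes. The smallest p-values belonged to Hmgn2, which encodes a nucleosome-binding protein, with -0.55 (SE 0.25, limma adjusted p = 0.647), and Hmgxb4 with 0.55 (SE 0.31, limma adjusted p = 0.673). In adult against wild-type fetal cells 0 were called, where 3.19% of genes were, 4 of 9 had an unadjusted p under 0.05, where 18.6% of genes did, and the median was -0.12, against 0.06 over all genes. Hmgn3, with its wild-type fetal mean below background, was at least 2.13-fold higher in adult cells (limma adjusted p = 0.0738, not called), and Hmgb1, an abundant DNA-bending chromatin protein, had -0.78 (SE 0.20, limma adjusted p = 0.0791). Hmgb1 rose in Hmga2-/- against adult cells, with 9.62 ± 0.24 (SD, n = 3) in Hmga2-/- cells and 8.57 ± 0.10 (SD, n = 2) in adult cells (log2 fold change 1.04, SE 0.20, limma adjusted p = 0.0204), and the other 8 were not called, where 5.8% of genes were called higher. Hmgb1 has many near-copies in the genome, and its value rests on 2 probe sets.

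Linker histones, which occupy the DNA at the entry to the nucleosome, were measured in 5 of 7 genes, and 0 were called in any comparison, where 0.01% of genes were in Hmga2-/- against wild-type fetal cells, 3.19% in adult against wild-type fetal cells and 8.91% in Hmga2-/- against adult cells. Their median was -0.10 in Hmga2-/- against wild-type fetal cells, -0.61 in adult against wild-type fetal cells and 0.57 in Hmga2-/- against adult cells. At an unadjusted p under 0.05 stood 0, 3 and 2 of the 5 in these comparisons, against 7.63%, 18.6% and 29.4% of all genes. H1f4 had -1.08 in adult against wild-type fetal cells (SE 0.25, limma adjusted p = 0.0521), just short of a call, and -0.23 in Hmga2-/- against wild-type fetal cells (SE 0.22, limma adjusted p = 0.796).

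Of 9 other genes whose proteins carry AT-hooks, 8 were measured, and 0 were called in Hmga2-/- against wild-type fetal cells (median 0.06, 0 with an unadjusted p under 0.05, against 7.63% of all genes). Kmt2a, which encodes the MLL1 histone methyltransferase, rose in adult against wild-type fetal cells, with 9.76 ± 0.062 (SD, n = 2) in adult cells and 8.99 ± 0.11 (SD, n = 3) in wild-type fetal cells (log2 fold change 0.78, SE 0.16, limma adjusted p = 0.0358). It was 1 of 8 called there, higher, where 0.832% of genes were called higher. Between Hmga2-/- and adult cells 0 of 8 were called, where 8.91% of genes were, and 3 had an unadjusted p under 0.05, a share near the 29.4% of all genes. Kmt2a had -0.57 (SE 0.16, limma adjusted p = 0.0546).

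**Figure D5:**
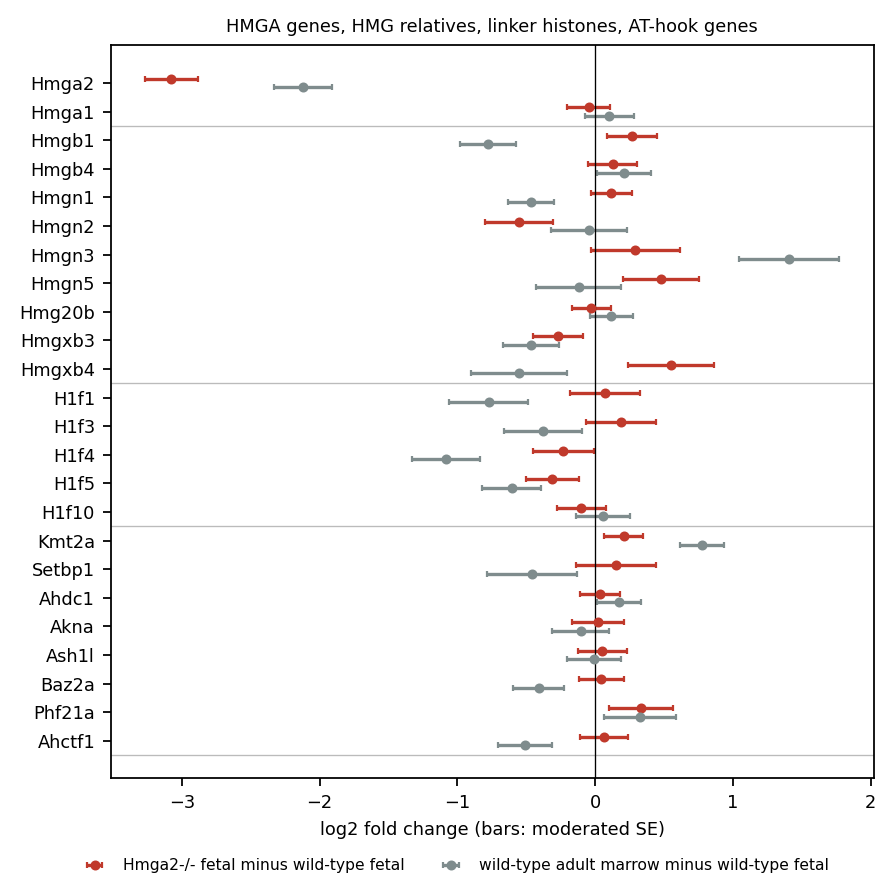
Log2 fold changes with the moderated SE as bars for the HMGA genes, other HMG genes, linker histones and other AT-hook genes, in Hmga2-/- against wild-type fetal cells (red) and adult against wild-type fetal cells (grey). Hmga2 stands at -3.08 and -2.12, while the measured relatives lie between -0.55 and 0.55 in red and between -1.08 and 1.41 in grey, the highest being Hmgn3, whose wild-type fetal mean is below background.

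Of 9 genes that have been reported to respond to HMGA2 in other systems, Igf2bp2 was the 1 called in Hmga2-/- against wild-type fetal cells, where 0.01% of genes were called lower. The list's median was 0.07, and the next smallest p belonged to Cdkn2a, which encodes the p16Ink4a and p19Arf cell cycle brakes, with 0.29 (limma adjusted p = 0.682) and both means below background. Igf2bp2, an mRNA-binding protein gene, read 5.40, 5.46 and 5.22 on Hmga2-/- arrays, 5.37 and 5.27 on adult arrays and 8.31, 8.81 and 8.11 on wild-type fetal arrays. The wild-type fetal arrays stood apart, at least 5.44-fold above each of the other groups, and both differences were called (log2 fold change -3.05, limma adjusted p = 0.000448 in Hmga2-/-, and -3.09, limma adjusted p = 0.000544 in adult cells). Its average lay below background in both Hmga2-/- and adult cells, with a log2 difference between these of 0.04 (limma adjusted p = 0.918). Of the 9, 2 fell in adult against wild-type fetal cells, where 2.36% of genes were called lower, namely Igf2bp2 and the cyclin gene Ccna2 (-1.72, SE 0.20, limma adjusted p = 0.00497), and Ccna2 was the 1 called higher in Hmga2-/- than in adult cells (1.80, SE 0.20, limma adjusted p = 0.00359), where 5.8% of genes were.

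The genes named upstream of or beside Hmga2 in the fetal programme kept another pattern. Of 5 genes of that list, 0 were called in Hmga2-/- against wild-type fetal cells by limma, and 2 had an unadjusted p under 0.05, against 7.63% of all genes. Lin28b, Igf2bp1, Igf2bp3 and Arid3a, 4 of the 5, fell in adult against wild-type fetal cells, where 2.36% of genes were called lower, and rose in Hmga2-/- against adult cells, where 5.8% were called higher. Lin28b averaged 8.21 ± 0.28 (SD, n = 3) in Hmga2-/- cells, 4.36 ± 0.073 (SD, n = 2) in adult cells and 7.60 ± 0.50 (SD, n = 3) in wild-type fetal cells, and was at least 4.72-fold higher in Hmga2-/- than in adult cells. Hmga2 itself had the opposite sign in that comparison, in which the fetal cells carry the Hmga2 mutation. In adult against wild-type fetal cells, both without the mutation, Hmga2 fell as these 4 genes did (-2.12). The list was known from earlier results of these data and is no independent evidence.

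Genes whose averages followed Hmga2 most closely over the 8 arrays were sought among 10181 genes with at least 1 group mean above background, leaving out predicted genes, clone names and small RNAs. They were Igf2bp2 (Pearson r = 0.941), Ctns (0.930), which encodes the lysosomal cystine transporter, Phf19 (0.928), a Polycomb-associated protein gene, Fam98b (0.914) and Cd59a (0.905), which encodes an inhibitor of the complement attack complex. Of these Igf2bp2 alone was called in Hmga2-/- against wild-type fetal cells and in adult against wild-type fetal cells, and Phf19 was called lower in Hmga2-/- than in adult cells (limma adjusted p = 0.0485). The averages of Ctns were 5.35 in Hmga2-/- cells, 5.84 in adult cells and 6.43 in wild-type fetal cells, so 2 of its 3 group means lay below background, and those of Fam98b ran only from 9.55 to 9.73. Phf19 averaged 5.55 in Hmga2-/- cells, below background. Cd59a averaged 4.52 in Hmga2-/- cells and 5.48 in adult cells, both below background. Hmga1 was number 3376 by likeness to Hmga2.

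For Hmga1 the closest were Tmem239 (0.974), Ppp1r3g (0.966), Notch4 (0.962), Cdc42ep2 (0.960) and Fpr-rs3 (0.959). As with Hmga1, the lowest of the 8 arrays in all 5 was wild-type fetal array 3, at 5.20 to 5.98, and their group means ran from 5.63 to 6.79, near background. None of the 5 was called in any comparison. The averages of Hmga1 spanned only 0.491 over the 8 arrays, so this likeness describes small differences and 1 array.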

How the data were processed

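RNA of sorted Lin-Sca1+cKit+ cells was amplified, labelled and hybridised to Affymetrix Mouse Gene 1.0 ST arrays, per the labels' protocols. The authors deposited intensities on a linear scale, and the submitters' processing notes name RMA, with no version or software stated. The deposited intensity tables held 225993 probe sets and 199508 exon rows, of which 180224 carried the values of a probe set. Values were log2 transformed without further normalization.

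The platform annotation named exactly 1 gene for 208881 probe sets, more than 1 for 1668 and no gene for 15444, and genes were averaged over the probe sets with exactly 1. Symbols were updated through RefSeq (GRCm38.p6). Background was the 95th percentile of 980 olfactory receptor genes or their 1193 probe sets, and a bound on a fold was computed with arrays of the dimmer group raised to it. For a gene the raising was done on its average and not on its probe sets, so the bound holds for the average alone.

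Genes and probe sets were fitted with limma (version 3.58.1, R 4.3.3) with 1 coefficient per group, and diffSplice tested unequal change. Permutation tests over arrays were exact. The number of arrays limits the precision. On simulated arrays of 19958 genes for Hmga2-/- against wild-type fetal cells, 80% of genes changed 2-fold and 100% of those changed 4-fold were recovered. The simulation changed 50 genes at each fold, whereas 2 genes were called on the measured arrays. It also drew noise independently for each probe set. These shares can therefore overstate what the measured arrays recover. Genes with as few probe sets as the 3 of Hmga1 were not among those changed. Members, lists and rules were chosen with earlier results of these data known. The text names Hmga2 and Hmga1, called genes of each list (or those of smallest p) and the 5 genes of highest correlation with each member. Alternatives varied the samples fitted, the replicate block, variance pooling, array weights, probe-set summary, filters, scaling, offset and source table, and left out each array. List genes without a value were not analysed here. Tables were made with Python 3.11.15.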

Additional observations from a re-analysis of the deposited data

How the results depend on the processing

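Hmga2 kept its direction in all 3 comparisons under all 21 alternatives. Several of these altered only the variance, the other genes or arrays outside a comparison, so the value and its direction could not change there. In Hmga2-/- against wild-type fetal cells it was not called without pooled variances (-3.08, adjusted p = 0.209) or in the exon table (-3.12, adjusted p = 0.391), and in adult against wild-type fetal cells likewise (-2.12, adjusted p = 0.0582, and -0.54, adjusted p = 0.691). The exon table holds only probe sets 3 and 4 of Hmga2 and none of Hmga1, and gave -2.58 for Hmga2 in Hmga2-/- against adult cells (adjusted p = 0.0474). In Hmga2-/- against adult cells it was not called without pooled variances (-0.95, adjusted p = 0.0986) or without any 1 Hmga2-/- array or adult array 2, and with 1 array left out it ranged from -1.24 to -0.66. The causes were not tested.

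Replicate numbers are shared by the groups, and the main fit treated the arrays as sharing only a number. Deviations of same-numbered arrays correlated at -0.013, 0.018 and -0.016 between Hmga2-/- and wild-type fetal cells. The values were 0.112 and 0.045 between adult and wild-type fetal cells and -0.038 and -0.029 between Hmga2-/- and adult cells. The 2 adult arrays deviate from their mean by equal and opposite amounts, so the values that involve them are not independent. These correlations cannot decide whether same-numbered arrays were paired. With the replicate block Hmga2 had -0.94 in Hmga2-/- against adult cells (adjusted p = 0.0877), and the genes called numbered 185 in adult against wild-type fetal cells and 489 in Hmga2-/- against adult cells, against 637 and 1779 without it.

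Hmga1 was never called, and its sign turned with the median of the probe sets in Hmga2-/- against wild-type fetal cells (0.16) and against adult cells (0.14). With 1 array left out it ranged from -0.182 to 0.063 in Hmga2-/- against wild-type fetal cells and from -0.032 to 0.214 in adult against wild-type fetal cells.

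The counts of genes called moved more. In adult against wild-type fetal cells they were 120 with only these groups fitted, 50 without pooled variances, 179 with the median of the probe sets, 322 in the exon table and 225 to 574 with 1 array left out. In Hmga2-/- against adult cells they were 116, 762 and 1106 without pooled variances, with the median of the probe sets and in the exon table and 482 to 2437 with 1 array left out, the highest without wild-type fetal array 3. In Hmga2-/- against wild-type fetal cells they were 0 without pooled variances and 1 in the exon table.

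Of the 8 probe sets of Hmga2, those called singly in Hmga2-/- against wild-type fetal cells were 2 with only these groups fitted, 1 with array weights, 1 without dim probe sets and 0 to 2 with 1 array left out, 2 of them without adult array 1 or 2. In adult against wild-type fetal cells 1 was called without dim probe sets, 1 with 16 added before the logarithm and 0 to 1 with 1 array left out, and in Hmga2-/- against adult cells 0 to 1. The share of all probe sets called was not counted under these alternatives, so these counts have no background to be read against. Unequal change of Hmga2 in adult against wild-type fetal cells had an adjusted p of 0.115 with only these groups fitted and 0.00341 to 0.109 with 1 array left out, and it was called in all 16 alternatives in Hmga2-/- against wild-type fetal cells. Median centring and quantile normalization put the median of all genes in Hmga2-/- against adult cells at -0.13 and -0.12, and without dim genes it was 0.20. Each group held 2 or 3 arrays, which limits what can be called.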
